A study of Mus musculus with 9 samples.

Results

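The complement genes described here are 9 of the 56748 genes in the deposited count table. They were chosen by name, as components of complement and its fluid-phase or membrane inhibitors. They are the proteases C1ra, C1s1 and C1rl, the convertase components C4b, C3 and Cfb, the fluid-phase inhibitor Serping1, and the membrane inhibitors Cd55 and Cd59a. RNA was measured in MLO-Y4, a clonal mouse cell line with osteocyte features, which shared transwells with primary articular chondrocytes taken from C57BL/6J mice aged 5 to 6 days. In every group the cells therefore received the soluble products of living chondrocytes across a porous membrane, and there was no group without chondrocytes. In the control group (3 libraries) the chondrocytes were unstimulated. In the 24 h and 48 h groups (3 libraries each) the chondrocytes had been exposed to 10 ng/ml interleukin-1β for 6 h before co-culture, which then lasted 24 h or 48 h. The culture time of the control group was not in the labels, so stimulation and time in culture cannot be told apart in a comparison with control. The labels did not say whether the 3 libraries of a group came from separate cultures, and p-values measure the spread between these libraries only. For the 48 h libraries the sample labels write MLO-Y5, MLO-Y6 and MLO-Y7 as the cell line, whereas their protocols speak of MLO-Y4. The comparisons ask whether complement RNA of the osteocyte-like cells differed with the state of the chondrocytes and with the length of co-culture.

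Complement is a cascade of plasma proteins that marks surfaces for clearance and can form pores in membranes. In the classical pathway, C1q binds a surface and activates the serine proteases C1r and C1s, which cleave C4 and C2 to build an enzyme that cleaves C3, the protein on which all pathways converge. Factor B, the product of Cfb, forms the corresponding enzyme of the alternative pathway. C1 inhibitor, the product of Serping1, inactivates C1r and C1s, while CD55 dissociates the C3-cleaving enzymes and CD59 blocks the terminal pore on the cell surface. The liver makes most circulating complement, but cells of the joint and other tissues also make components of it.

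Total counts ran from 12250628 to 18515456 per library. Of the 12 osteocyte markers, Gja1, Col1a1, Pdpn and Phex were well represented, whereas Dmp1 had at most 6 counts and Sost at most 1 count in any library, and Mepe and Fgf23 had 0. The summed osteocyte list was 3010 to 3180 CPM in control, 3082 to 3110 at 24 h and 3882 to 3953 at 48 h. CPM are read counts relative to the size of the library, with edgeR's TMM scaling. Gja1 alone averaged 1498 CPM in control and 2413 at 48 h. Of the 8 osteocyte markers tested, 3 were higher at 48 h than in control (Gja1, Phex and Pdpn). Another 3 were lower (Sp7, Bglap and Col1a1), against 22% higher and 24.4% lower among all genes tested. Of the 14 chondrocyte markers, 5 were at 0 in every library, Acan among them, and Col2a1 had at most 7 counts. Prg4 and Sox9 were abundant, and with them the chondrocyte list summed to 1682 to 1717 CPM in control, 1566 to 1650 at 24 h and 2128 to 2217 at 48 h. The other 12 chondrocyte markers together gave 6.03 to 7.60 CPM in control, 4.02 to 5.21 at 24 h and 4.49 to 6.17 at 48 h. Of the 5 chondrocyte markers tested, 0 were called at 24 h. At 48 h, 3 were higher than in control (Prg4, Sox9 and Comp) and 1 was lower (Matn3), against the same shares of all genes. Comp had at most 21 counts in any library. Of the 12 macrophage markers, which matter because macrophages make complement, Itgam, Adgre1, Aif1, Tyrobp and Laptm5 were at 0 in every library and Ptprc had at most 1 count. Others were present: Cd14 measured 13.3 ± 0.72 CPM (SD, n = 3) in control, 20.5 ± 1.4 at 24 h and 16.0 ± 0.98 at 48 h, and was higher than in control at 24 h (adjusted p = 0.000304, edgeR) and at 48 h (adjusted p = 0.0285). Csf1r measured 3.31 ± 0.48, 1.84 ± 0.39 and 3.24 ± 0.31 CPM and was lower at 24 h (adjusted p = 0.0377), and Cd68 measured 2.74 ± 0.92, 2.40 ± 0.40 and 2.89 ± 0.66 CPM and was not called. That list summed to 19.3 to 20.7 CPM in control, 25.0 to 26.7 at 24 h and 21.0 to 24.7 at 48 h. The part of these marker levels in the complement values was not tested. In bulk RNA, fewer cells of a type and less RNA per cell cannot be told apart.

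The sequences just upstream of 5 members are shown because 4 of these genes were higher than in control at 48 h. The fifth, C1rl, lies beside C1ra and C1s1 and was not called between any pair of groups. Each is the 250 bases before the start of the gene's canonical GENCODE M39 transcript on GRCm39, written 5′ to 3′ along the gene. The windows are chr17:57535156-57535405 (minus strand) for C3, chr17:34962913-34963162 (minus) for C4b, chr6:124489114-124489363 (plus) for C1ra, chr6:124519319-124519568 (minus) for C1s1 and chr6:124469805-124470054 (plus) for C1rl. Capitals mark matches, on either strand, to the C/EBP motif TTGCNNAA, the hypoxia response motif ACGTG or the kappa-B motif of NF-κB.
C3: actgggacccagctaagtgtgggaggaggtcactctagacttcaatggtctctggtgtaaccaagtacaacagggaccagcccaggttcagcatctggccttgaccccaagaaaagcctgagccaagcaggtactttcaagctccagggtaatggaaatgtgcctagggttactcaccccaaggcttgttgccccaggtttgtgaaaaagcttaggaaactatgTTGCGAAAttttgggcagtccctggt
C4b: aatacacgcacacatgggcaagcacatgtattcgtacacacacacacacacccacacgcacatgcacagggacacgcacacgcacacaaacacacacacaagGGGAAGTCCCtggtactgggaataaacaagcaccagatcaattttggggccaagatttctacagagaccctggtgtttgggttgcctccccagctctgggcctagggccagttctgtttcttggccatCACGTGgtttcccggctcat
C1ra: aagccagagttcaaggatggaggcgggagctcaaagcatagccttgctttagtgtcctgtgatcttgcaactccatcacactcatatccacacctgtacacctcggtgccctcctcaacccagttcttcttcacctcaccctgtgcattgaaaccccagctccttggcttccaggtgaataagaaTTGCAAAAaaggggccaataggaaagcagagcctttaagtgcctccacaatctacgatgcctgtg
C1s1: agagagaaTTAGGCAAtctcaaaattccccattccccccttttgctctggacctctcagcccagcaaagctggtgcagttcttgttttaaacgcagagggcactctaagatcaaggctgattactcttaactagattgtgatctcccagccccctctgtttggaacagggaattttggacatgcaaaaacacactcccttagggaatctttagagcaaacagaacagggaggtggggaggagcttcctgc
C1rl: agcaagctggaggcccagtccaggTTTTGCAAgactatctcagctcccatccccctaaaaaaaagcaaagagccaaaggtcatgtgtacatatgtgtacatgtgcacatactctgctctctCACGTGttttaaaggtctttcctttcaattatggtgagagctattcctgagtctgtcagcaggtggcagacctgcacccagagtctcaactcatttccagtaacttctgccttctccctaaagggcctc

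The C/EBP motif was present in 4 of the 9 members' windows, and in 9.34% of the 21757 promoters of the same length. Its matches lay 26 bases before the start in C3, 65 bases in C1ra, 242 bases in C1s1 and 226 bases in C1rl. The kappa-B motif was found in C4b at 148 bases and in Cfb at 159 and 66 bases, against 7.63% of promoters. ACGTG was found in C4b at 20 bases, in C1rl at 129 bases and in Serping1 at 248 bases, against 17% of promoters. In C4b and C1rl the match was CACGTG, which reads the same on both strands and so matched on each. The interferon-stimulated response element, searched as GAAANNGAAA, matched in Cd59a at 173 bases, against 3.32% of promoters. The interferon-γ activated site, searched as TTCNNNGAA, matched in none of the 9 windows and in 7.7% of promoters. In the sequences shown, no match of 1 motif overlapped that of another. These are matches of letters, and binding was not measured.

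Of the 9 members, 6 passed the filter on low counts and were tested, and Cfb, Serping1 and Cd55 were not. At 24 h, 1 member was higher than in control and 0 were lower by edgeR's quasi-likelihood test at an adjusted p under 0.05. The corresponding shares of all 13812 genes tested were 3.25% higher and 2.9% lower. At an unadjusted p under 0.05, 2 members were lower at 24 h, and DESeq2 called 0 lower. At 48 h, 4 members were higher than in control and 0 were lower, against 22% and 24.4% of all genes, and both unadjusted p-values and DESeq2 also gave 0 lower. Between the stimulated groups, 4 members were higher at 48 h than at 24 h and 0 were lower. The shares of all genes were 23.7% and 25.4%. At an unadjusted p under 0.05, 6 members were higher at 48 h than at 24 h and 0 lower, while DESeq2 called 4 higher and 0 lower. The median log2 fold change of the 6 tested members was -0.06 at 24 h, 1.23 at 48 h and 0.86 for 48 h versus 24 h, while the medians over all genes were -0.0042, -0.0022 and -0.0017. The joint test of the 3 groups called 5 of the 6 members, against 51.9% of all genes. The exception was Cd59a (adjusted p = 0.0596, edgeR), and C1rl was just past the threshold (adjusted p = 0.0481). The joint count was 4 with DESeq2, with its size factors, with no filter, without control replicate 3 and without any single 24 h or 48 h library, and 6 with library totals alone as the scale. Comparisons of 24 h and 48 h with control share the control libraries.

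**Figure D1:**
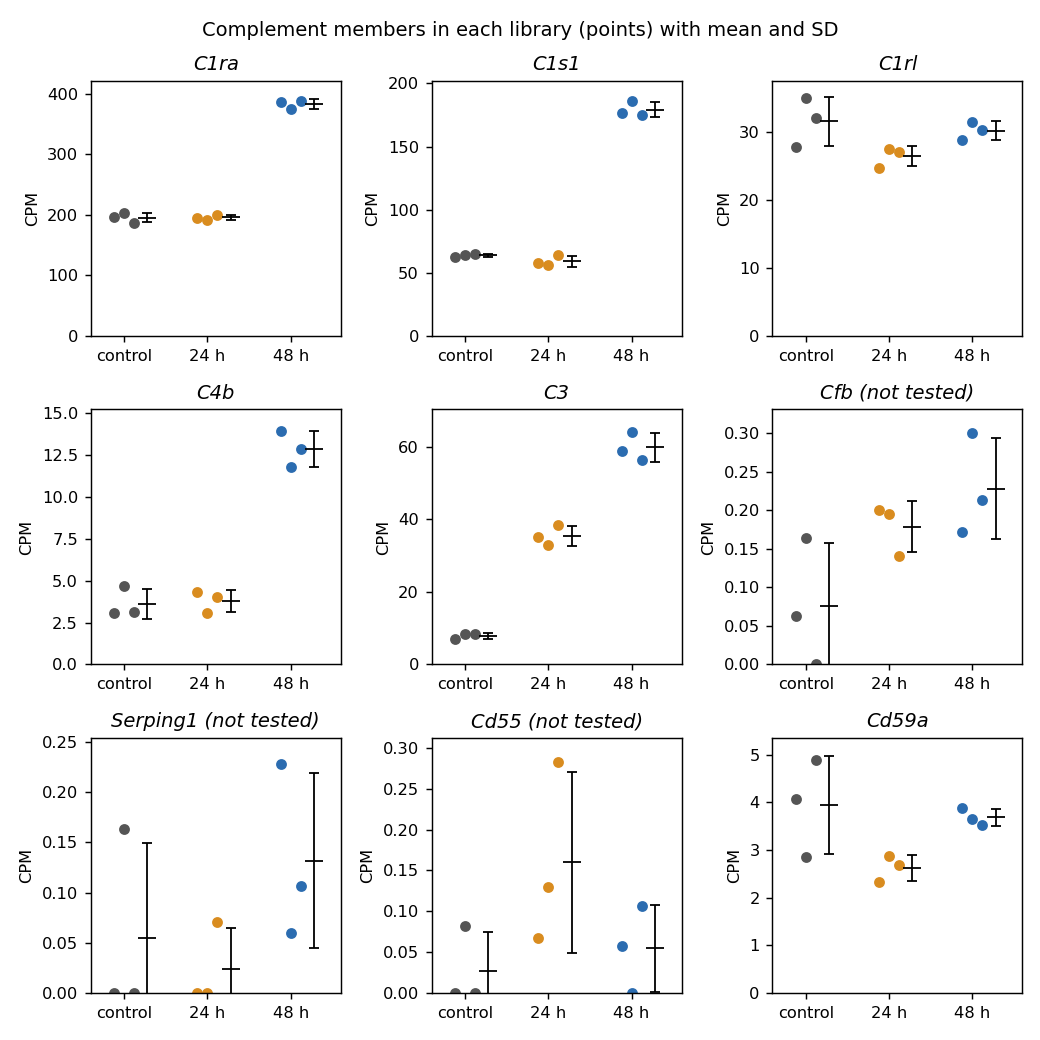
Level of each of the 9 members in CPM (y axis, starting at 0, a separate scale per gene) in control, 24 h and 48 h libraries; points are single libraries and the bar beside them is the mean with its SD (n = 3, drawn down to 0 where it runs below). C3 rises at 24 h and again at 48 h, C1ra, C1s1 and C4b stand higher only in the 48 h libraries, and Cfb, Serping1 and Cd55 stay under 0.3 CPM.

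C3 encodes the central component of complement, and lies on chr17:57510970-57535136 (ENSMUSG00000024164). It was the single one of the 6 tested members that was called at 24 h. Its level was 6.91, 8.42 and 8.28 CPM in control, 35.1, 32.9 and 38.4 CPM at 24 h, and 58.8, 64.0 and 56.4 CPM at 48 h. The 3 groups did not overlap, and every 48 h library was above every 24 h library. The log2 fold change from control was 2.18 at 24 h (SE 0.10, 4.53-fold, 95% interval 3.92 to 5.24, adjusted p = 6.34e-11, edgeR). At 48 h it was 2.93 (SE 0.09, 7.64-fold, interval 6.65 to 8.77, adjusted p = 1.56e-13). From 24 h to 48 h C3 rose a further 0.75 on the log2 scale (1.69-fold, interval 1.51 to 1.88, adjusted p = 1.97e-07, edgeR).

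C4b encodes complement C4, the substrate of C1s, and lies on chr17:34947354-34962856 (ENSMUSG00000073418). Its level was 3.08, 4.66 and 3.16 CPM in control, 4.34, 3.06 and 4.02 CPM at 24 h, and 13.9, 11.8 and 12.9 CPM at 48 h. The control and 24 h libraries overlapped, and all 48 h libraries lay above them. C4b had a log2 difference of 0.08 at 24 h (95% interval of the fold 0.795 to 1.41, adjusted p = 0.883, edgeR). At 48 h it was higher than in control by 1.84 on the log2 scale (SE 0.17, 3.58-fold, interval 2.81 to 4.57, adjusted p = 5.36e-08), and higher than at 24 h by 1.76 (adjusted p = 6.23e-08). C4a, a close copy of C4b on the same chromosome, had 11, 11 and 7 counts in control, 10, 9 and 10 at 24 h, and 13, 14 and 14 at 48 h. C4a was not called in any comparison (joint adjusted p = 0.835, edgeR), and the difference in change between the copies was not tested. Their transcripts are 96% identical. Of all 150-base stretches of the C4b transcript, the length of 1 sequencing read, 8.17% also occur unchanged in C4a.

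C1ra encodes the C1r protease, and had the highest level of the members in every group (chr6:124489364-124500402, ENSMUSG00000055172). It measured 197, 204 and 187 CPM in control, 195, 192 and 200 CPM at 24 h, and 386, 375 and 389 CPM at 48 h. The 24 h libraries lay within the control range, and the 48 h libraries lay far above both. The 24 h difference on the log2 scale was 0.0013, with a 95% interval of the fold from 0.933 to 1.07 (adjusted p = 0.994, edgeR). At 48 h C1ra was higher than in control by 0.97 (SE 0.05, 1.96-fold, interval 1.83 to 2.10, adjusted p = 1.57e-11).

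C1s1 encodes the C1s protease, the partner of C1r in the C1 complex (chr6:124507304-124519318, ENSMUSG00000038521). It measured 62.8, 64.4 and 65.2 CPM in control, 57.7, 55.9 and 63.9 CPM at 24 h, and 177, 186 and 175 CPM at 48 h. The 24 h and control libraries overlapped. The difference at 24 h was -0.12 on the log2 scale (95% interval of the fold 0.844 to 1.01, adjusted p = 0.331, edgeR). At 48 h C1s1 was higher by 1.48 (SE 0.06, 2.80-fold, interval 2.57 to 3.05, adjusted p = 1.16e-12), and it was 3.03-fold higher than at 24 h (interval 2.78 to 3.30, adjusted p = 4.07e-13).

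C1r and C1s act together, so the ratio of their RNA per length was also described. C1ra exceeded C1s1 by a ratio of CPM per kb of 3.29, 3.32 and 3.02 in control, 3.55, 3.61 and 3.29 at 24 h, and 2.29, 2.12 and 2.33 at 48 h. The 48 h ratios lay below all others, with group means of 3.21 ± 0.17 (SD, n = 3), 3.48 ± 0.17 and 2.25 ± 0.11. No test was run on this ratio. C1ra shares 26.3% of its 150-base stretches with its copy C1rb, and C1s1 shares 2.89% with C1s2. The size of the ratio may therefore depend on how shared reads were handled.

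C1rl encodes a C1r-like protease known to cleave the precursor of haptoglobin (chr6:124470072-124487602, ENSMUSG00000038527). It measured 27.8, 35.0 and 32.1 CPM in control, 24.8, 27.5 and 27.2 CPM at 24 h, and 28.9, 31.5 and 30.4 CPM at 48 h. The 24 h libraries lay below all the others, by a small margin, and the 48 h libraries lay within the control range. The log2 difference was -0.25 at 24 h (SE 0.09, adjusted p = 0.103, edgeR), -0.06 at 48 h (adjusted p = 0.603), with a 95% interval of the fold of 0.849 to 1.09, and 0.19 for 48 h versus 24 h (adjusted p = 0.0694). Without control replicate 1 the 24 h value was -0.34 and passed the threshold (adjusted p = 0.0324). The value for 48 h versus 24 h passed without control replicate 1 (adjusted p = 0.0362) or control replicate 2 (adjusted p = 0.0357), with only the 2 groups in the fit (adjusted p = 0.0291), and with library totals alone as the scale (adjusted p = 0.031).

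Cd59a encodes a membrane inhibitor of the terminal pore (chr2:103926146-103945699, ENSMUSG00000032679). It measured 4.08, 2.86 and 4.89 CPM in control, 2.34, 2.86 and 2.68 CPM at 24 h, and 3.89, 3.66 and 3.52 CPM at 48 h. Control replicate 2 lay at the upper end of the 24 h libraries and below the other controls. The log2 difference was -0.59 at 24 h (SE 0.22, 95% interval of the fold 0.485 to 0.909, adjusted p = 0.127, edgeR) and -0.10 at 48 h (SE 0.20, interval 0.693 to 1.25, adjusted p = 0.704). For 48 h versus 24 h it was 0.49 (adjusted p = 0.0655). Without control replicate 2 the 24 h difference was -0.76 and passed the threshold (adjusted p = 0.043), as did that for 48 h versus 24 h (adjusted p = 0.04). The latter also passed with library totals alone as the scale (adjusted p = 0.0478). Its close copy Cd59b had 1 to 5 counts per library and was not tested.

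**Figure D2:**
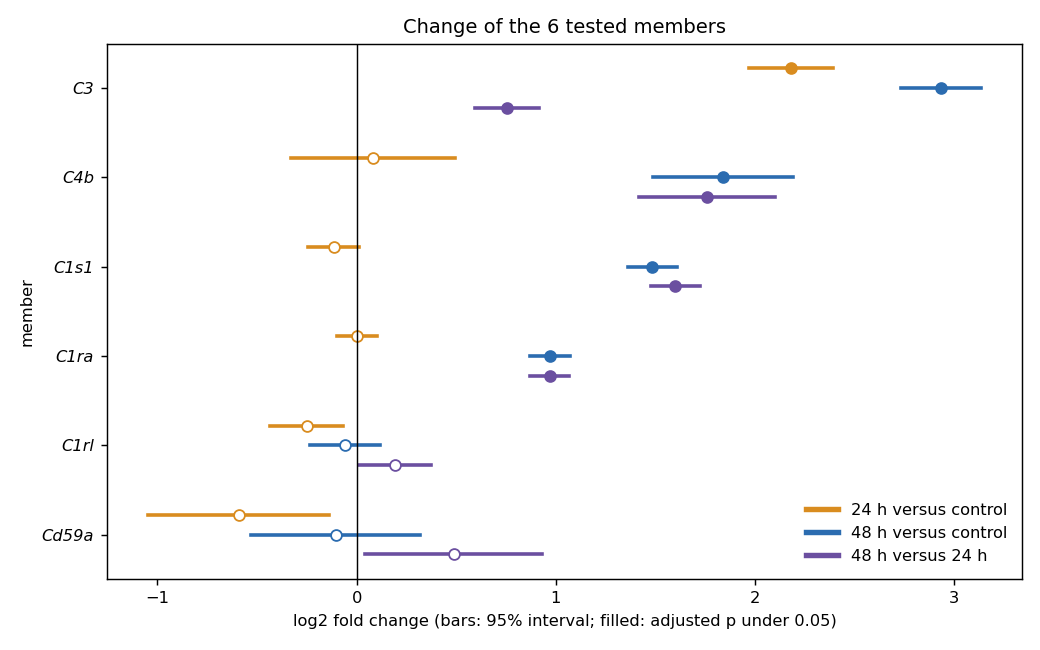
Log2 fold change (x axis) of the 6 tested members (y axis) for 24 h versus control, 48 h versus control and 48 h versus 24 h, with bars for the 95% interval and filled points for an adjusted p under 0.05. All 3 points of C3 are filled, those of C4b, C1s1 and C1ra are filled in the comparisons that hold the 48 h libraries, and none of C1rl or Cd59a is.

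The remaining 3 members were at or near the limit of detection, which for 3 counts was 0.160 to 0.245 CPM depending on the library; such limits cover counting error only. Cfb, the alternative pathway protease (chr17:35075350-35081494), had 1, 2 and 0 counts in control, 3, 3 and 2 at 24 h, and 3, 5 and 4 at 48 h. Its CPM ratio of 48 h to control was 3.13, with a counting interval of 0.845 to 17.3 that includes no difference. The 48 h and control libraries did not overlap, and the 2-sided exact permutation test gave p = 0.1, the smallest that 3 libraries against 3 allow. Of the 3420 exon bases that GENCODE M39 gives Cfb, 2246 (65.7%) also belong to Gm20547, a gene on the same strand that has 0 counts in every library. Nelfe, on the opposite strand, covers 1704 of these Cfb exon bases (49.8%) in GENCODE M39 and has 11933 counts over all libraries. In the deposited coordinates, by contrast, Nelfe ends at 35075348, before the start of Cfb at 35075350, so the genes share no bases there. Neither the strand setting nor the assignment of reads shared by overlapping genes was stated. The counts of Cfb may therefore be too low or too high. Serping1, which encodes C1 inhibitor (chr2:84595731-84605788), had 0, 2 and 0 counts in control, 0, 0 and 1 at 24 h, and 4, 1 and 2 at 48 h (exact permutation p = 0.3 for 48 h versus control). Cd55, the decay-accelerating factor (chr1:130366764-130390481), had 0, 1 and 0 counts in control, 1, 2 and 4 at 24 h, and 1, 0 and 2 at 48 h (exact permutation p = 0.2 for 24 h and 0.7 for 48 h versus control). A difference of Serping1 or Cd55 was not detectable at this depth. Cd55b, the close copy of Cd55, had 0 counts throughout.

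Between genes, levels were compared as CPM per kb of the gene length given in the table. In control the order was C1ra at 65.7 ± 2.7 (SD, n = 3), C1s1 at 20.5 ± 0.39, C1rl at 10.5 ± 1.2, Cd59a at 2.18 ± 0.56, C3 at 1.53 ± 0.16 and C4b at 0.638 ± 0.157. Cd59a and C3 overlapped between libraries there, and no other neighbours in the order did. At 24 h C3 stood at 6.89 ± 0.54, above Cd59a at 1.45 ± 0.15 and below C1rl at 8.79 ± 0.49, without overlap. At 48 h C3 reached 11.6 ± 0.76 and was above C1rl at 10.0 ± 0.45, again without overlap, while C1ra was at 129 ± 2.6 and C1s1 at 57.3 ± 1.8. C4b, at 2.26 ± 0.19, was above Cd59a, at 2.04 ± 0.10, but their libraries overlapped. Per length, C3 was at 0.0233 of the level of C1ra in control, 0.105 at 24 h and 0.0904 at 48 h.

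**Figure D3:**
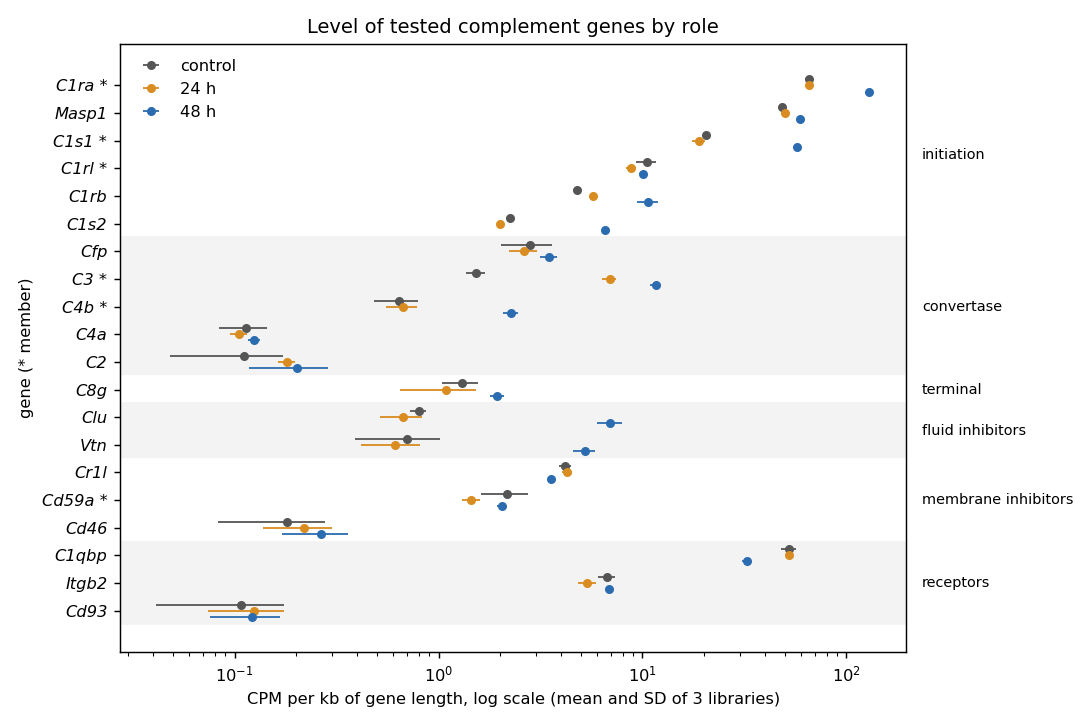
Level in CPM per kb of gene length (x axis, log scale) of tested complement genes, grouped by role (y axis, members starred), in control, 24 h and 48 h; points are means of 3 libraries and bars their SD. C1ra is the highest gene in each group, and the fluid-phase inhibitors Clu and Vtn lie near 1 CPM per kb or below in control and 24 h and above 5 at 48 h.

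The other genes of the cascade were read from lists of 51 further complement genes, of which 15 were tested and 21 had 0 counts in every library. At 24 h, 0 of the 15 were called by edgeR, with 2 at an unadjusted p under 0.05 and 0 called by DESeq2. At 48 h, 6 were higher and 2 lower than in control, against 22% and 24.4% of all genes tested. For 48 h versus 24 h, 8 were higher and 2 lower, against 23.7% and 25.4% of all genes. Among the initiating proteases, members included, 5 of 6 tested genes were higher at 48 h. C1rb, a close copy of C1ra, rose by 1.15 on the log2 scale (adjusted p = 3.12e-08, edgeR), and C1s2, a close copy of C1s1, rose by 1.56 (adjusted p = 1.71e-09). Masp1, the lectin pathway protease, rose by 0.29 (adjusted p = 9.61e-06). C1qa, C1qb and C1qc, which encode the recognition subunits of the C1 complex with C1r and C1s, had 0 counts in all 9 libraries, each allowing at most 0.245 CPM in the shallowest library. Among the recognition molecules of the lectin pathway, Fcna, a ficolin gene, had 10, 5 and 3 counts in control, 8, 8 and 0 at 24 h, and 17, 4 and 8 at 48 h, and was not tested. Mbl1, Mbl2 and Fcnb had 0 counts, and Colec10 and Colec11 at most 2 in any library. These lectin pathway genes were named after their values were seen. For the convertases, C3 and C4b were the called genes among 5 tested at 48 h, and Cfd, which encodes the activating protease of factor B, had 0 counts. Of the terminal components, Hc, which encodes C5, had 0 counts. C8g, which encodes a chain of C8, was the single one tested and was higher at 48 h than at 24 h by 0.83 (adjusted p = 0.0187, edgeR). Without 24 h replicate 1 or 48 h replicate 1, that call was lost (adjusted p = 0.115 and 0.0619).

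Among the fluid-phase inhibitors, Clu and Vtn were higher at 48 h than in control. Clu, which encodes clusterin, a protein that binds nascent terminal complexes, had the largest log2 difference of the tested complement genes. It measured 2.57, 3.03 and 2.63 CPM in control, 1.80, 2.86 and 2.26 CPM at 24 h, and 23.3, 27.5 and 20.9 CPM at 48 h. All 48 h libraries were far above the others, with a log2 difference from control of 3.12 (SE 0.16, adjusted p = 1.87e-11, edgeR). Vtn encodes vitronectin, a second inhibitor of the terminal complex, and was higher by 2.92 (SE 0.24, adjusted p = 1.68e-08). Among the membrane inhibitors, 0 of 3 tested genes were higher at 48 h and 1 was lower, against 22% and 24.4% of all genes. The lower gene was Cr1l, the mouse membrane regulator also called Crry, which fell by 0.25 on the log2 scale (adjusted p = 0.00718, edgeR). Of the receptors, C1qbp, which encodes a C1q-binding protein found mainly in mitochondria, fell by 0.69 (adjusted p = 6.76e-08). Itgb2, a chain of leukocyte integrins that include complement receptors, was called only for 48 h versus 24 h, where it was higher by 0.35 (adjusted p = 0.00517). C5ar1 had 0 counts in every library and C3ar1 at most 1, so neither anaphylatoxin receptor was detectable at this depth.

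C1rl, C1ra, C1s1, C1rb and C1s2 lie side by side on chromosome 6 from 124470072 to 124613044. At 48 h 4 of these 5 genes were higher than in control, and C1rl, at the edge of the block, was not called. Of all genes tested, 22% were higher and 24.4% lower at 48 h. Of the 12 other genes tested within 200 kb, 5 were higher, 4 lower and 3 not called, with log2 differences from -0.48 to 1.17 and a median of 0.04. The level of each copy was also set against its partner. C1ra exceeded C1rb per kb by a ratio of 13.7 ± 1.1 (SD, n = 3) in control, 11.5 ± 0.13 at 24 h and 12.2 ± 1.7 at 48 h, with overlap of control and 48 h libraries. C1s1 exceeded C1s2 by 9.17 ± 0.33, 9.45 ± 0.59 and 8.72 ± 0.33. C1ra and C1rb transcripts are 97.9% identical and share 26.3% of the 150-base stretches of C1ra, and C1s1 and C1s2 are 95.5% identical and share 2.89%. Reads from the shared stretches could be assigned to either copy or left uncounted, and the handling was not stated. The split between C1ra and C1rb is therefore uncertain, and the levels of both may be too low. On chromosome 17, C4b, C4a and C2 lie between 34947354 and 35117241, and C4b alone of these 3 was called at 48 h. C2 shares 38.4% of its exon bases with Gm20547 on the same strand and 4.43% with Zbtb12 on the opposite strand. Its counts, like those of Cfb, may therefore be too low or too high. Of the 30 other tested genes in or within 200 kb of that stretch, 6 were higher, 4 lower and 20 not called. The shares of all genes tested were 22% higher and 24.4% lower.

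**Figure D4:**
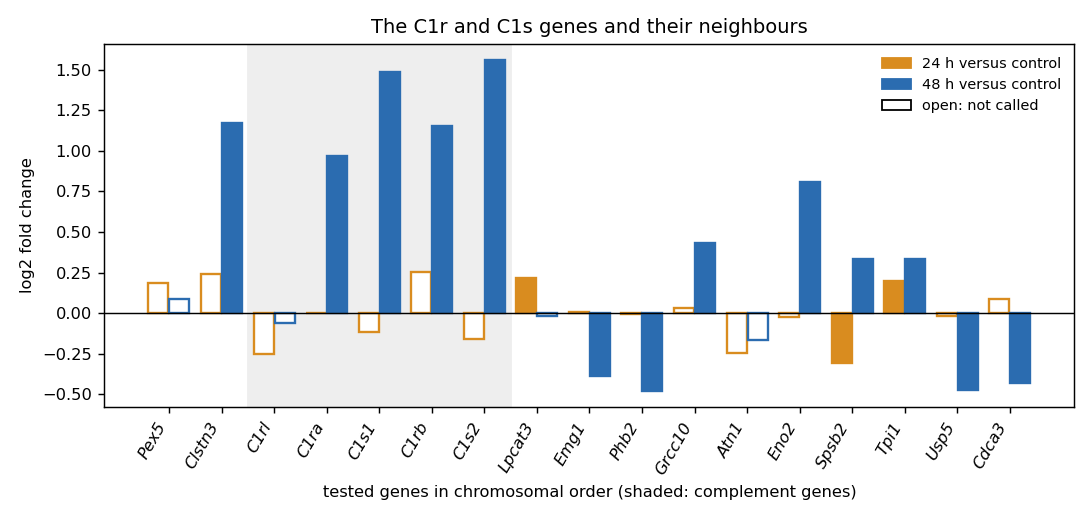
Log2 fold change (y axis) at 24 h and 48 h versus control for the tested genes in and within 200 kb of the C1r and C1s genes, in chromosomal order (x axis); shading marks complement genes and open bars genes that were not called. At 48 h C1ra, C1s1, C1rb and C1s2 stand between 0.97 and 1.56, while C1rl lies at -0.06.

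The receptors, transcription factors and feedback inhibitors of interleukin-1, interleukin-6 family, interferon and hypoxia signalling, which are known to act on complement genes, formed a list of 29 genes, all tested. At 24 h, 8 were higher and 1 lower than in control, against 3.25% and 2.9% of all genes. At 48 h 19 were higher and 1 lower, against 22% and 24.4%. Cebpd, which encodes a C/EBP family transcription factor of the acute-phase response, measured 9.92, 9.89 and 6.85 CPM in control, 25.8, 20.6 and 24.7 CPM at 24 h, and 40.5, 37.6 and 49.3 CPM at 48 h. Its 3 groups did not overlap, and the same held for other genes of this list, Osmr, Socs3 and Stat2 among them. Cebpd exceeded control on the log2 scale by 1.41 after 24 h (adjusted p = 2.42e-06, edgeR) and by 2.25 after 48 h (adjusted p = 1.73e-10). Its part in the complement values was not tested. Osmr, the receptor of oncostatin M, was higher by 0.27 at 24 h and 1.22 at 48 h (adjusted p = 0.000865 and 7.23e-13). Socs3, a feedback inhibitor of the same pathway, was higher by 0.57 and 0.94 (adjusted p = 2.10e-05 and 2.65e-09). Stat2, a transducer of interferon signals, was not called at 24 h and was higher by 1.26 at 48 h (adjusted p = 7.81e-12). Il6st, the receptor chain shared by the interleukin-6 family, was higher by 0.71 at 48 h (adjusted p = 6.72e-08). Its 24 h value of 0.24 (adjusted p = 0.0398) did not pass without control replicate 1 or 2, 24 h replicate 1 or 3, or 48 h replicate 1 or 2 (adjusted p from 0.0555 to 0.188). Epas1, a hypoxia-inducible factor, was higher by 0.69 at 48 h (adjusted p = 0.0118), and not past the threshold without 48 h replicate 3 (adjusted p = 0.0507). At 24 h its log2 difference was -0.63 and was not called (adjusted p = 0.16, edgeR). The mean level of Epas1 was 2.29 CPM in control, 1.48 at 24 h and 3.71 at 48 h.

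For each tested member, similar patterns were sought among 10075 protein-coding genes with a mean of at least 5 CPM. The 9 members themselves were left out of these candidates. The nearest genes were those with the smallest root mean square difference over the 9 libraries of log2 CPM less each gene's own control mean. For C3 these were Hp, which encodes the acute-phase protein haptoglobin, with a difference of 0.164, and Mmp13, a collagenase, with 0.275, against a median of 2.12 over all candidates. Hp had log2 changes of 2.42 at 24 h and 3.01 at 48 h, and Mmp13 of 1.85 and 2.91. For C4b they were Ndrg1 (0.177) and Rab37 (0.181), against a median of 1.09. For C1ra they were Dtx4 (0.0611) and Dab2 (0.0724), against 0.593. For C1s1 they were its own copy C1s2 (0.067) and Lrp4 (0.109), against 0.886. C1rl was nearest to Mov10 (0.0631) and Clba1 (0.07), against 0.248, and Cd59a to Peg10 (0.161) and Mapk12 (0.181), against 0.408. C1s2 was the single gene of the complement lists among these 12 nearest genes, where no member could appear. Likeness between members was not examined.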

How the data were processed

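Libraries of MLO-Y4 RNA were made with a strand-marking kit and sequenced as paired reads of 150 bases. As the labels state, the authors trimmed the reads, aligned them to GRCm39 with HISAT2 and counted them per gene with featureCounts. The featureCounts version is given differently in the labels and the methods, and neither states the strand setting or the handling of reads that match several genes. The authors deposited 1 table of raw read counts, not normalized, with gene coordinates and lengths.

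Counts were analysed with edgeR 4.0.16 in R 4.3.3. Genes were kept by filterByExpr (minimum count 10), which left 13812 of 26232 genes with a read, holding 99.9% of reads. Libraries were scaled by edgeR's TMM factors (0.983 to 1.015). The quasi-likelihood model was fitted to all 9 libraries, had no term besides group and left 6 residual degrees of freedom. The Benjamini-Hochberg adjustment covered every gene tested. A gene was called at an adjusted p under 0.05. Intervals of fold changes are 95% intervals from that fit, and counting intervals of ratios are exact. The scripts were tested on simulated data. Alternatives were DESeq2 1.42.0, other scalings, no filter, a replicate block, a pair of groups at a time, a minimum log2 change of 1, and leaving out each library. Replicates differed by more than sampling noise (chi-square per degree of freedom 2.26 to 8.14).

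Named genes were the members, called complement genes, close copies, key components at any level, the 6 most changed inducing genes, and 2 nearest patterns per member with a mean of at least 5 CPM. The members and lists were chosen with earlier results of these data known. The values of 1 further gene of the complement lists, which is in the counts, are not reported here. Copies were compared by transcript sequence (GENCODE M39) rather than protein, and promoters were read from GRCm39.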

Additional observations from a re-analysis of the deposited data

Results flagged for a closer look

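The change from control differed between the co-culture times for 4 members. This was tested by the direct comparison of the 48 h and 24 h libraries (edgeR, 3 libraries each), in which the shared control libraries cancel. Of all genes tested, 23.7% were higher and 25.4% lower at 48 h than at 24 h. C3 was higher at 48 h by a further 0.75 on the log2 scale (adjusted p = 1.97e-07). C4b differed by 1.76 (adjusted p = 6.23e-08) and C1ra by 0.97 (adjusted p = 1.25e-11). C1s1 differed by 1.60 (adjusted p = 4.07e-13). In each case all 3 libraries at 48 h were above all 3 at 24 h. That was also so for C1rl and Cd59a, which were not called. The share of all genes with such separation was not computed, so nothing particular to the members is read from it. Groups of 3 libraries are too small for a test of single outlying libraries.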

How the results depend on the processing

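Of 288 member values recomputed under the alternatives, 269 kept their direction and their side of the threshold, 9 passed the threshold that they had missed, 3 no longer passed it and 7 changed sign. All 7 sign changes were of values that were not called. Leaving out 1 library moved C4b at 24 h between -0.030 (without control replicate 1) and 0.29, with -0.023 without 24 h replicate 1. C1ra at 24 h was -0.017 with library totals alone as the scale, and ran from -0.023 (without control replicate 3) to 0.032 when a library was left out, with -0.011 without 24 h replicate 3. C1rl at 48 h ran from -0.14 to 0.030 (without control replicate 2), and Cd59a at 48 h from -0.27 to 0.082 (without control replicate 3). C4a at 48 h versus control, which is no member, ran from -0.0043 (without control replicate 3) to 0.34. Leaving out 1 library gave 0 to 1 members lower at 24 h (C1rl without control replicate 1, Cd59a without control replicate 2), 0 to 1 further complement genes called at 24 h (1 without control replicate 1), and 518 to 1475 genes called at 24 h overall against 849. The lowest count was without 24 h replicate 3 (518), followed by 24 h replicate 1 (524), and the highest without control replicate 3 (1475). With a log2 change of at least 1 required, 63 genes were called at 24 h, 705 at 48 h and 806 for 48 h versus 24 h. Of the further complement genes 5 at 48 h and 4 for 48 h versus 24 h then remained in the count, and 2 members were higher at 48 h than at 24 h; by construction this leaves out smaller changes.

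No pairing of the libraries by replicate number was seen. Over 9 same-numbered pairs the correlation of deviations from the group means ran from -0.05 to 0.08, with 0 over 0.1. With 3 libraries per group this cannot exclude pairing, and the labels do not say what the number shares. With a replicate block, 958 genes were called at 24 h, and C1rl for 48 h versus 24 h passed the threshold (0.19, adjusted p = 0.0414). The members' other calls did not change under the block. The 3 libraries per group and low counts limit Cfb, Serping1 and Cd55.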
